A study of Mus musculus with 6 samples.

Results

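The enzymes that set the direction of glucose flux in liver were followed as a group of 9 genes: Hk2, Pfkfb1, Pfkfb3, Pklr, Pkm and Ldha on the side of glycolysis and its control, and G6pc1, Pck1 and Fbp1 on the side of gluconeogenesis. The members were taken by name, and a probe was assigned to a member when its transcript accession mapped to that gene. Of the 9 genes, 8 had at least 1 probe and all 8 passed the filter on dim probes, out of 21059 genes and transcripts tested. No probe was matched to Pck1, which encodes cytosolic phosphoenolpyruvate carboxykinase, and it was not analysed here.

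RNA from livers of mice aged 5 weeks was hybridised to one-colour Agilent arrays, 1 array per sample. The 3 sMaf CKO samples came from mice in which small Maf was knocked out specifically in liver, and the 3 control samples from wild-type mice, all on a mixed background of 129Sv/J, C57BL/6J and ICR and fed chow without restriction. Small Maf proteins are partners through which factors such as NRF1 and NRF2 bind DNA, and the comparison asks which liver transcripts differ when they are lost. Not stated in the labels are the driver of the knockout, the small Maf genes it removed, the animals' sex and the hour of collection, and glucose enzymes vary with feeding and time of day.

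Glycolysis breaks glucose down to pyruvate and gluconeogenesis makes glucose from lactate, amino acids and glycerol. Both share most of their enzymes and differ at a few irreversible steps, each with its own kinase or phosphatase. Adult hepatocytes use the liver pyruvate kinase encoded by Pklr, whereas growing cells, macrophages and many tumours use hexokinase 2 (Hk2) and the M-type pyruvate kinase encoded by Pkm. The bifunctional PFKFB enzymes make and break fructose 2,6-bisphosphate, which activates phosphofructokinase and inhibits fructose-1,6-bisphosphatase.

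3 stretches of promoter are shown because the results turn on these genes: Hk2, the member with the smallest p, and Pklr and Pkm, the pair of pyruvate kinases whose means lay in opposite directions. They are the 250 bases before an annotated start in RefSeq on GRCm38.p6, read along the strand of the gene. The Hk2 stretch is chr6:82774455-82774704 on the minus strand, that of Pklr is chr3:89136373-89136622 on the plus strand and that of Pkm is chr9:59656977-59657226 on the plus strand. Pklr and Pkm each have 2 annotated starts in the table, and the downstream one is shown. Capitals mark a match to 1 of the motifs named after the sequences.
Hk2: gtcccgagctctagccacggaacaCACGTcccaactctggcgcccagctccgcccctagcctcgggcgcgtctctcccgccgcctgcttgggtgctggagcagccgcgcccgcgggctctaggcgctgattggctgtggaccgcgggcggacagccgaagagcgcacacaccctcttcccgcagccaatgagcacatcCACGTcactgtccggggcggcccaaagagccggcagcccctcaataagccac
Pklr: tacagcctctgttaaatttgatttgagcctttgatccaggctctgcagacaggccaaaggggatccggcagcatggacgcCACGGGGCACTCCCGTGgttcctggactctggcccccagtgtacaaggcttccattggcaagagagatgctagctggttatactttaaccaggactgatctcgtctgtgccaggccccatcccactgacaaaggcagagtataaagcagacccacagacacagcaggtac
Pkm: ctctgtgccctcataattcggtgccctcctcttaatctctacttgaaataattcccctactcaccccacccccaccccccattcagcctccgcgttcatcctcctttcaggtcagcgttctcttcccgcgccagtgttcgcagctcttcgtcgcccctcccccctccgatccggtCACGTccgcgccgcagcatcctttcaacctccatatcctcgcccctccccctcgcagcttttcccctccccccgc

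The motifs searched on both strands of the 250 bases were TGACNNNGC, the core of the antioxidant response element bound by NRF2 with small Maf, CACGTG, the E-box, the carbohydrate response element, a pair of E-box-like sites at a fixed spacing, ACGTG, the core of the hypoxia response element, and TGACGTCA, the cAMP response element. The Pklr stretch held the paired motif as CACGGGGCACTCCCGTG, from position -170 to -154 relative to the start. Pklr is a textbook target of the glucose-sensing factor ChREBP through such an element, and 0.0396% of all 32851 promoter stretches in the table held this motif. The Hk2 stretch held ACGTG on the opposite strand at 2 places and the Pkm stretch at 1 place. That short motif was in 16.6% of all promoter stretches and lay before starts of 4 of the 9 genes, Hk2, Pkm, Pfkfb3 and Ldha. In Pfkfb3 and Ldha some of its matches lay outside any E-box. Of the 16 annotated starts of the 9 genes, the antioxidant response element core was found before 2, those of G6pc1 and Fbp1, against 10.2% of all stretches. E-boxes were found before 1 start each of Pfkfb3 and Ldha, where each overlaps ACGTG (6.02% of all stretches), and TGACGTCA before 1 start of Ldha (1.55% of all stretches). A match describes these letters and is not evidence of binding.

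On these arrays the label of the knockout was checked through Mafg. Its log2 level, taken against the array's own 75th percentile, was -2.97, -4.36 and -0.76 in sMaf CKO livers 1, 2 and 3, against 1.88, 1.87 and 2.23 in control livers 1, 2 and 3. All sMaf CKO livers were below all control livers, and the log2 fold change of -4.69 (SE 0.79) had a limma adjusted p of 0.0533, or 0.0207 with slide as a block. The other small Maf genes, Maff (0.15, adjusted p = 0.911) and Mafk (0.21, adjusted p = 0.759), did not pass, and no source used here places these probes inside or outside a deleted part. Slide 1 carried replicates 1 and 2 of each genotype and slide 2 carried replicate 3, so a value within slide 2 compares 1 array with 1. Processed signals had a 75th percentile of 484.4 to 960.5 on sMaf CKO arrays and 483.4 to 609.3 on control arrays, and from 58.0% to 73.6% of probes were well above background. All 11 hepatocyte markers with a probe were well above background on every array. The submitters describe the RNA samples as independent. The limma p-values set each difference against the spread between these samples, moderated by the spread of all genes.

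None of the 8 switch enzymes passed limma's test at a Benjamini-Hochberg adjusted p under 0.05, and 0.541% of all genes tested did. At an unadjusted p under 0.05 there were 2 members, Hk2 and Pklr, which is 25% of the 8 against 16.8% of all genes. For 1 member, Hk2, the genotypes showed no overlap between arrays, which is 12.5% of the members against 22.9% of all genes. By their means, 4 members were higher in sMaf CKO liver (Hk2, Pkm, Ldha and G6pc1) and 4 were lower (Pklr, Pfkfb1, Pfkfb3 and Fbp1). The median log2 fold change of the members was -0.03 and that of all genes -0.05. Levels below are on this same log2 scale and, since each probe has its own brightness, they are compared between arrays and not between genes.

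**Figure D1:**
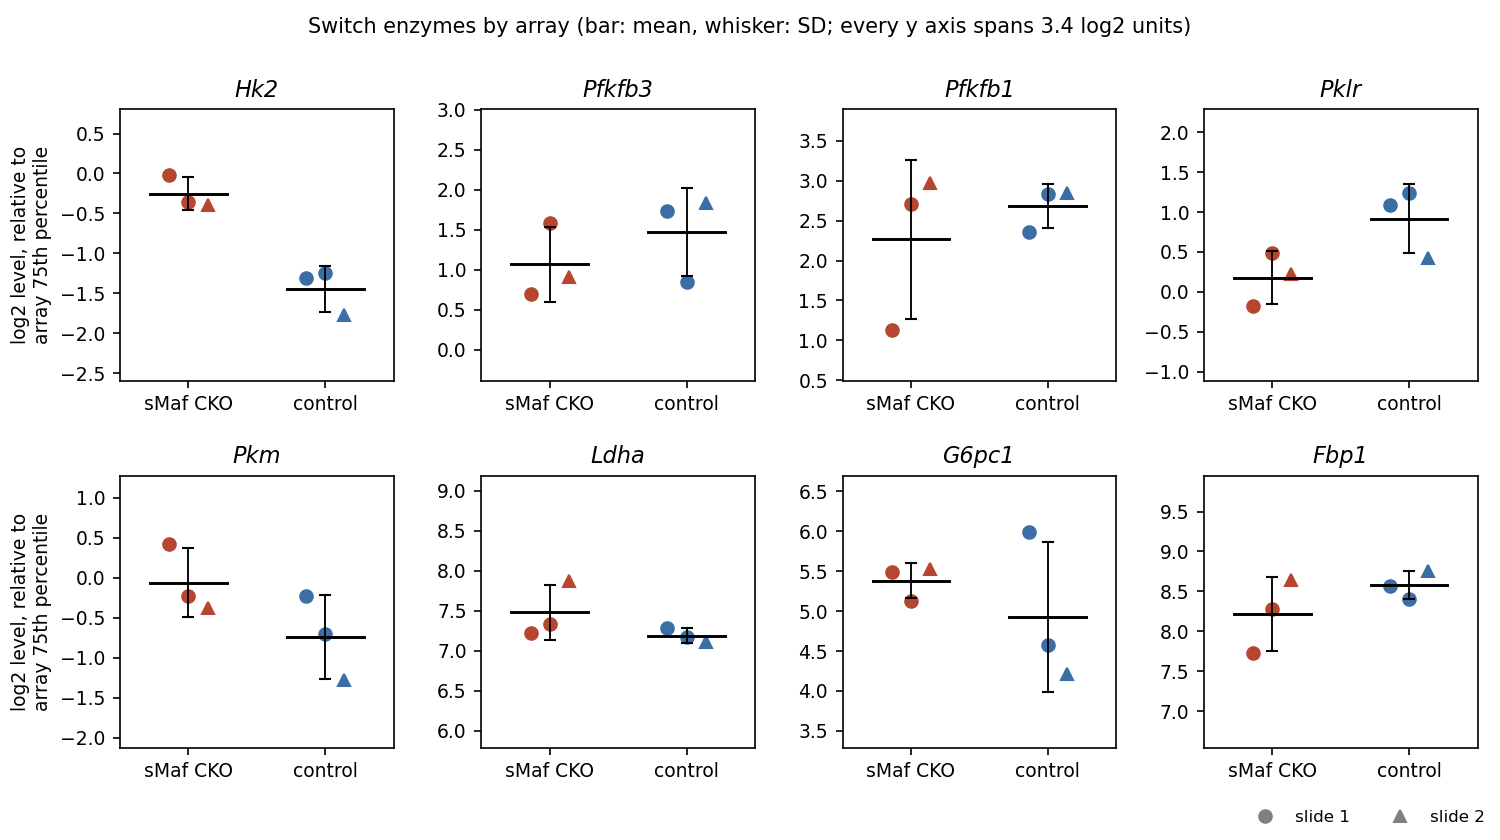
Level of each of the 8 measured switch enzymes on each array, as log2 relative to the array's 75th percentile, for sMaf CKO and control livers; circles are slide 1, triangles slide 2, bars the mean and whiskers the SD (n = 3). Hk2 is the one panel where the sMaf CKO arrays (-0.39 to -0.02) and the control arrays (-1.77 to -1.25) do not overlap.

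Hk2 encodes hexokinase 2, which phosphorylates glucose with high affinity and is scarce in healthy hepatocytes. Its log2 level was -0.02, -0.35 and -0.39 in sMaf CKO livers 1, 2 and 3, against -1.31, -1.25 and -1.77 in control livers 1, 2 and 3. Every sMaf CKO liver was above every control liver. The mean was -0.25 ± 0.21 in sMaf CKO and -1.45 ± 0.29 in control liver (SD, n = 3 each), a log2 fold change of 1.19 (SE 0.24) or 2.28-fold. In limma's test over all genes the adjusted p was 0.0832, which misses the threshold, and Hk2 ranked 315 of 21059 by p. With slide as a block, where 1.61% of all genes passed, Hk2 passed at an adjusted p of 0.0482. The difference was 1.10 within slide 1 and 1.38 within slide 2. Hk2 also passed when probes had to be well above background on all 6 arrays (adjusted p = 0.0494) and with array weights (adjusted p = 0.0239). With 1 array left out it did not pass (limma adjusted p = 0.0834 to 0.226). Nor did Hk2 pass with spike-in scaling (limma adjusted p = 0.444), without the filter on dim probes (0.257), within slide 1 (0.176) or with normexp (0.119).

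The pyruvate kinases catalyse the last step of glycolysis, and their 2 genes had means on opposite sides. Pklr, whose liver form is the enzyme of hepatocytes, had a log2 level of -0.18, 0.48 and 0.22 in sMaf CKO livers 1, 2 and 3, against 1.08, 1.24 and 0.43 in control livers 1, 2 and 3. The groups overlapped by a narrow margin, since sMaf CKO liver 2 (0.48) lay just above control liver 3 (0.43). The mean was 0.18 ± 0.33 in sMaf CKO and 0.92 ± 0.43 in control liver (SD, n = 3 each), and the log2 fold change of -0.74 (SE 0.30) did not pass limma's test (adjusted p = 0.271). It was -1.01 within slide 1 and -0.20 within slide 2, so most of the difference lay on 1 of the slides.

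Pkm, the gene of the M1 and M2 forms made by alternative splicing, had a log2 level of 0.43, -0.23 and -0.38 in sMaf CKO livers 1, 2 and 3, against -0.23, -0.70 and -1.28 in control livers 1, 2 and 3. The highest value was in sMaf CKO liver 1 and the lowest in control liver 3, while sMaf CKO liver 3 lay below control liver 1. The log2 fold change was 0.68 (SE 0.34) and did not pass limma's test (adjusted p = 0.367), with 0.57 within slide 1 and 0.90 within slide 2. It was 0.43 without sMaf CKO replicate 1 and 0.41 without control replicate 3. The single probe is assigned to the gene by its accession and is not resolved here to one splice form.

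A difference of 2 log2 levels taken within an array does not depend on a scaling factor common to the array, so pairs of isozymes were also compared in this way. Pkm minus Pklr was 0.60, -0.71 and -0.61 in sMaf CKO livers 1, 2 and 3, against -1.32, -1.94 and -1.71 in control livers 1, 2 and 3. Every sMaf CKO liver thus lay above every control liver, although neither gene separated the groups alone. Of all single genes, 22.9% showed no overlap between the genotypes, and no such share was computed over pairs of genes. The change in the pair was 1.42 on the log2 scale, or 2.67-fold in favour of Pkm, with 1.58 within slide 1 and 1.10 within slide 2. The exact two-sided permutation test gave p = 0.1, the smallest that 3 arrays against 3 can give, and 0.3 after Benjamini-Hochberg adjustment over the 3 pairs compared. This permutation test cannot reach the 0.05 threshold with 3 arrays a group. An exact permutation within slides gave p = 0.167, again the smallest possible.

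Pfkfb3 minus Pfkfb1 did not separate the genotypes. It was -0.43, -1.12 and -2.05 in sMaf CKO livers 1, 2 and 3, against -0.63, -1.99 and -1.01 in control livers 1, 2 and 3. The change was 0.01, with opposite signs within slide 1 (0.53) and slide 2 (-1.04), and the exact permutation p was 1.

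**Figure D2:**
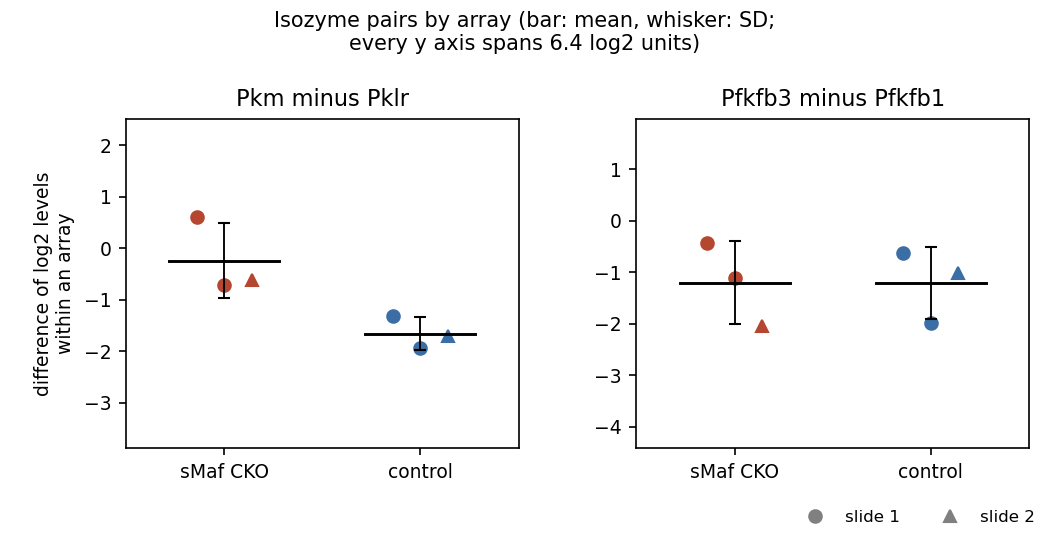
Difference of the log2 levels of 2 isozyme genes within each array, for sMaf CKO and control livers; circles are slide 1, triangles slide 2, bars the mean and whiskers the SD (n = 3). Pkm minus Pklr lies between -0.71 and 0.60 on the sMaf CKO arrays and between -1.94 and -1.32 on the control arrays, while Pfkfb3 minus Pfkfb1 overlaps.

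Neither PFKFB member passed the test. Pfkfb1, the bifunctional enzyme of liver that glucagon signalling turns towards its phosphatase activity, had a log2 level of 1.13, 2.71 and 2.97 in sMaf CKO livers 1, 2 and 3, against 2.36, 2.83 and 2.85 in control livers 1, 2 and 3. The value of sMaf CKO liver 1 stood well below the other 5, which lay between 2.36 and 2.97. The log2 fold change was -0.41 (SE 0.47, limma adjusted p = 0.694), and without sMaf CKO replicate 1 it was 0.16, the opposite sign. Pfkfb3, a form with high kinase activity found in many proliferating cells, had 0.69, 1.59 and 0.92 in sMaf CKO livers 1, 2 and 3, against 1.73, 0.84 and 1.84 in control livers 1, 2 and 3. The groups overlapped and the log2 fold change was -0.41 (SE 0.36, limma adjusted p = 0.597). With 1 array left out it was -0.72 (control replicate 2), -0.67 (sMaf CKO replicate 2) or -0.22 (sMaf CKO replicate 1 or control replicate 3). Its 2 other probes gave -0.42 and -0.56 but were close to background, with 2 of 3 sMaf CKO arrays well above it.

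Ldha encodes the lactate dehydrogenase subunit A, which interconverts pyruvate and lactate. The log2 level was 7.22, 7.34 and 7.87 in sMaf CKO livers 1, 2 and 3, against 7.29, 7.18 and 7.11 in control livers 1, 2 and 3. The highest value was in sMaf CKO liver 3, and sMaf CKO liver 1 lay within the control range. The log2 fold change was 0.29 (SE 0.24, limma adjusted p = 0.579), 0.05 within slide 1 and 0.77 within slide 2, and the second probe gave 0.43. It was 0.09 without sMaf CKO replicate 3 and 0.69 with quantile normalization.

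The gluconeogenic members did not pass the test either. G6pc1 encodes the glucose-6-phosphatase that releases glucose from the liver, and its symbol in the gene table is G6pc. Its log2 level was 5.49, 5.12 and 5.52 in sMaf CKO livers 1, 2 and 3, against 5.99, 4.58 and 4.22 in control livers 1, 2 and 3. The control livers held both the highest value and the 2 lowest, with an SD of 0.94 against 0.22 in sMaf CKO liver. The log2 fold change was 0.45 with a 95% interval of -0.58 to 1.48 (limma adjusted p = 0.643), 0.02 within slide 1 and 1.30 within slide 2. It was 0.98 without control replicate 1, 0.28 without control replicate 2 and 0.09 without control replicate 3.

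Fbp1 encodes fructose-1,6-bisphosphatase, the enzyme opposed to phosphofructokinase. Its log2 level was 7.73, 8.28 and 8.65 in sMaf CKO livers 1, 2 and 3, against 8.57, 8.41 and 8.76 in control livers 1, 2 and 3. The low value of sMaf CKO liver 1 belonged to the array with the highest 75th percentile. Before scaling, the processed signal of the probe was 194217 to 207018 on sMaf CKO arrays and 206876 to 220492 on control arrays, a narrow range on an unsaturated spot, and the part of the scaling in the difference was not tested. The log2 fold change was -0.36 with a 95% interval of -1.01 to 0.29 (limma adjusted p = 0.551), and it turned to 0.06 under quantile normalization. It was -0.057 under spike-in scaling, -0.12 without sMaf CKO replicate 1 and -0.57 without sMaf CKO replicate 3.

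**Figure D3:**
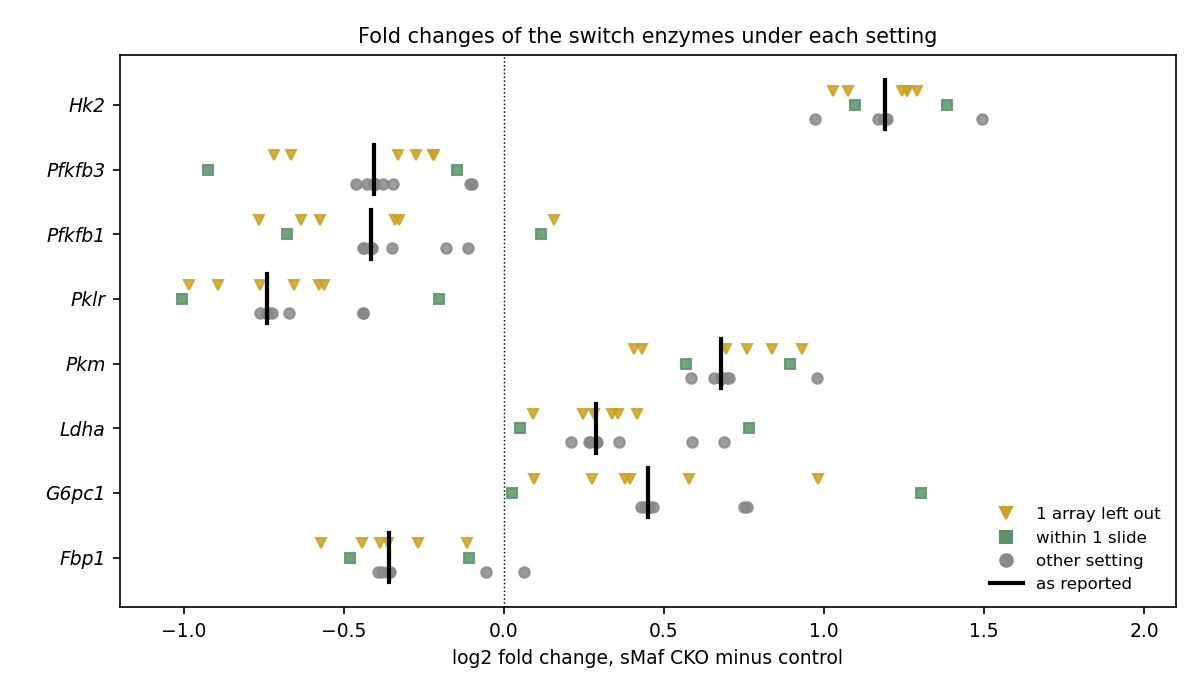
Log2 fold change (sMaf CKO minus control) of the 8 measured switch enzymes as reported (black bar), with 1 array left out, within 1 slide and under the other settings. Hk2 stays between 0.97 and 1.49. Pkm, Pklr, Pfkfb3, Ldha and G6pc1 also each stay on 1 side of 0, whereas Pfkfb1 and Fbp1 have values on both sides.

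The wider pathways were read from lists of enzymes. For the counts at an unadjusted p under 0.05 in this and the later lists, the share over all genes was 16.8%, both directions together. Of 22 glycolysis enzymes tested, 0 passed limma's test in either direction (3 higher and 3 lower at an unadjusted p under 0.05), with a median log2 fold change of -0.10 (0.11 with quantile normalization and 0.20 with spike-in scaling) against -0.05 over all genes. Besides Hk2, the smallest p-values belonged to Pfkp, the platelet form of phosphofructokinase (log2 fold change 1.94, SE 0.51, adjusted p = 0.147), and Aldoc, an aldolase best known from brain (-1.18, SE 0.39, adjusted p = 0.207). In the fit with a slide term Pfkp passed (adjusted p = 0.0259), but its dimmer probe gave 0.07.

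Of 7 gluconeogenesis enzymes tested, 0 passed (2 higher and 1 lower at an unadjusted p under 0.05), and the median was 0.16, or -0.097 with the 6-array filter. Pck2, the mitochondrial phosphoenolpyruvate carboxykinase, had a log2 fold change of 0.69 (SE 0.22, adjusted p = 0.190), and Pcx, the pyruvate carboxylase that feeds the pathway, -0.85 (SE 0.33, adjusted p = 0.262). Fbp2, the muscle form of fructose-1,6-bisphosphatase, had 1.86 (SE 0.44, adjusted p = 0.113) but its probe exceeded background clearly on only 2 of 3 sMaf CKO arrays and 1 of 3 control arrays. Of the 5 fructose 2,6-bisphosphate enzymes, 0 passed (1 higher at an unadjusted p under 0.05) and the median was -0.00088. The best-ranked was Pfkfb4, another bifunctional isozyme (0.58, SE 0.22, adjusted p = 0.256), followed by Tigar, a p53-induced phosphatase of the same substrate (0.37, SE 0.22, adjusted p = 0.451).

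**Figure D4:**
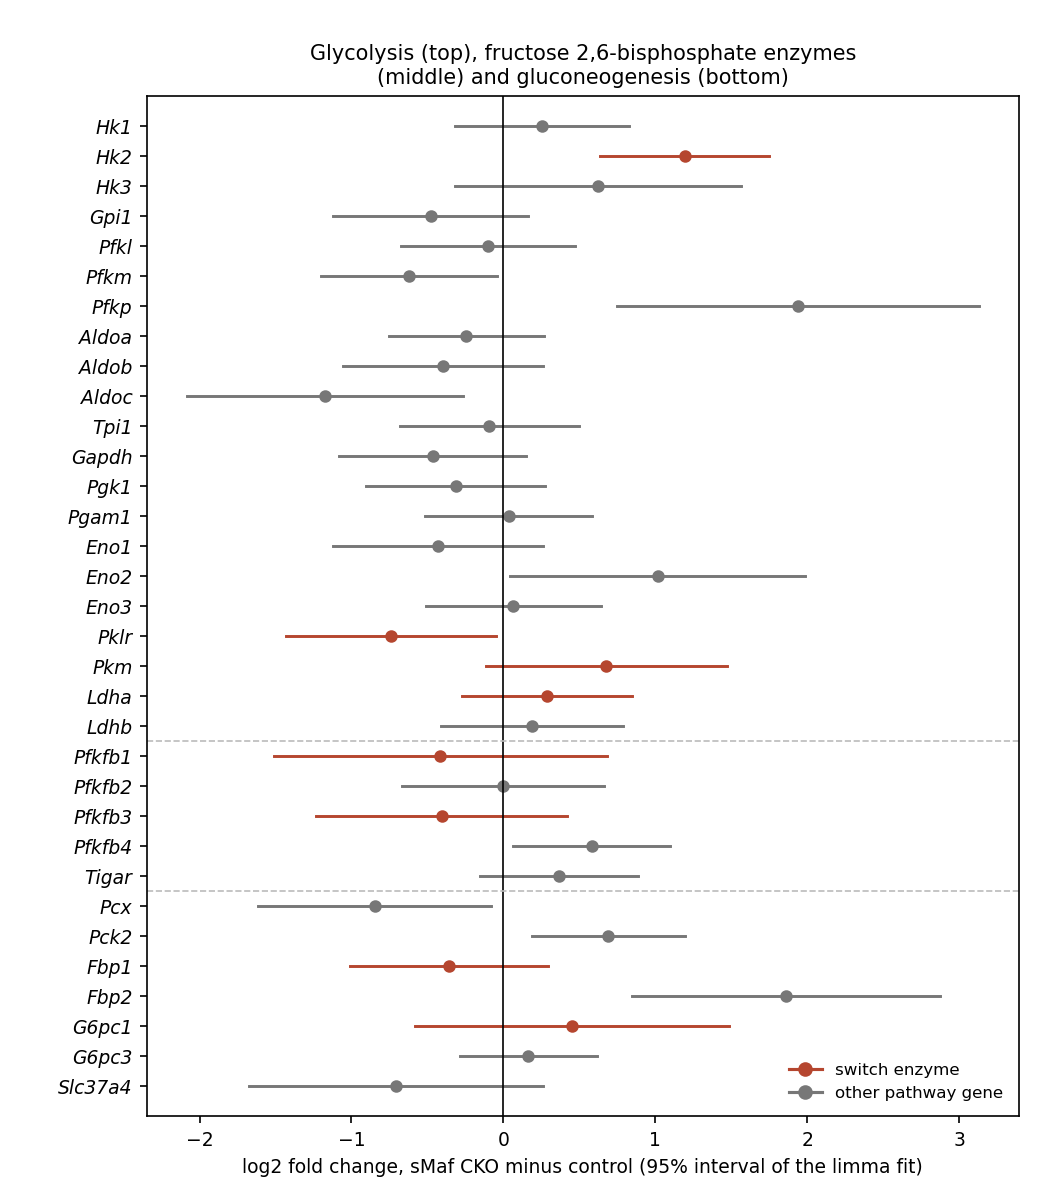
Log2 fold change (sMaf CKO minus control) with its 95% interval from the limma fit for glycolysis enzymes in pathway order, fructose 2,6-bisphosphate enzymes and gluconeogenesis enzymes; switch enzymes are in red, and 1 glycolysis gene is not shown. None passed at an adjusted p under 0.05; Hk2 (1.19), Pfkp (1.94) and Fbp2 (1.86) lie farthest to the right, and Aldoc (-1.18) farthest to the left.

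Past pyruvate, 0 of 11 genes of pyruvate entry and lactate transport passed (4 higher and 2 lower at an unadjusted p under 0.05; median -0.26, or 0.044 with spike-in scaling). Pdk4, a kinase that shuts pyruvate dehydrogenase in fasting, had a log2 level of 4.44, 0.89 and 2.38 in sMaf CKO livers 1, 2 and 3, against -0.57, -1.59 and -1.51 in control livers 1, 2 and 3. All sMaf CKO livers were above all control livers, but they ranged from 0.89 to 4.44 among themselves, and the log2 fold change of 3.79 (SE 0.80) had a limma adjusted p of 0.0907. Pdk4 passed with replicate number as a block (adjusted p = 0.0264) and with median scaling (adjusted p = 0.0492). Its isozyme Pdk1 lay the other way (-1.43, SE 0.41, adjusted p = 0.162), and Slc16a3, a lactate exporter of glycolytic cells, had 1.18 (SE 0.33, adjusted p = 0.160).

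Among 26 tested regulators of glucose metabolism, 0 passed (0 higher and 7 lower at an unadjusted p under 0.05), and 21 had a lower mean in sMaf CKO liver, with a median of -0.29 (0.0084 with spike-in scaling, which moved the median of all genes by 0.30). The insulin receptor gene Insr had the smallest p, with a log2 level of 0.27, 0.37 and 0.12 in sMaf CKO livers 1, 2 and 3, against 1.30, 1.42 and 1.22 in control livers 1, 2 and 3. These values were tight within each genotype, and the log2 fold change of -1.06 (SE 0.20) had a limma adjusted p of 0.0715. Insr passed with the 6-array filter (adjusted p = 0.0463), trend and robust settings (adjusted p = 0.0324) and array weights (adjusted p = 0.0243), and the mean of its 2 probes gave -0.71 (adjusted p = 0.151). Ppargc1a, a coactivator of gluconeogenic genes, had -1.30 (SE 0.42, adjusted p = 0.195), and Srebf1, a factor through which insulin acts on lipogenic genes, -0.96 (SE 0.31, adjusted p = 0.202). Hypoxia-inducible factor targets, which include Pdk1, had 0 of 14 members past the test (1 higher and 4 lower at an unadjusted p under 0.05; median -0.33). The best-ranked were Bnip3, a mitophagy receptor (-1.04, SE 0.27, adjusted p = 0.142), and Car9, a carbonic anhydrase (-0.82, SE 0.22, adjusted p = 0.150).

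Hk2, Pkm and Pfkfb3 are also made by cells other than hepatocytes, and in whole liver more cells of a type and more RNA per cell cannot be told apart. Of 11 markers of monocyte-derived macrophages, 2 rose and 0 fell by limma's test (8 higher and 1 lower at an unadjusted p under 0.05), and 10 of 11 had a higher mean. Ly6c2 went the other way (log2 fold change -0.85, limma adjusted p = 0.289), lower on all sMaf CKO arrays than on any control array. The 2 that rose were Trem2 and Gpnmb. Trem2 was 18.1-fold higher (adjusted p = 0.0105) and well above background on 2 of 3 control arrays. Gpnmb was at background on all control arrays and so kept by the filter through sMaf CKO arrays alone. Its limma adjusted p was 0.0117. With control levels raised to the dimmest signal well above background on each array, Gpnmb was 22.2-fold higher. That fold depends on this floor and on the background correction, and is not a lower bound. Neither passed without control replicate 1 (adjusted p = 0.0761 for Trem2 and 0.0690 for Gpnmb) or without the filter on dim probes (0.0558 and 0.0560), and Gpnmb did not without sMaf CKO replicate 1 (0.0858). With normexp the log2 fold change of Trem2 was 2.61, against 4.18 as reported, and that of Gpnmb 2.56, against 5.52, and both passed. The summed level of the 11 markers, in multiples of the array's 75th percentile, was 75.8 to 114.3 on sMaf CKO arrays and 47.9 to 61.1 on control arrays. For 10 Kupffer cell markers, 0 passed (4 higher at an unadjusted p under 0.05) and all 10 had a higher mean, with a summed level of 220.9 to 461.6 on sMaf CKO arrays and 96.4 to 164.7 on control arrays. The summed level of ductular markers was 21.2 to 55.3 on sMaf CKO arrays and 11.01 to 13.8 on control arrays (0 of 8 passed, 3 higher at an unadjusted p under 0.05).

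Hepatocyte markers had a summed level of 1812 to 3099 on sMaf CKO arrays and 2858 to 3530 on control arrays, with 11 of 11 means lower and a median of -0.57 (0 passed, 2 lower at an unadjusted p under 0.05). The lowest sum was that of sMaf CKO liver 1, whose array had the highest 75th percentile (960.5). The part of the scaling in these sums was not tested. Pklr also has an erythroid form, and the summed level of 6 tested erythroid markers overlapped, with 307.5 to 596.9 on sMaf CKO arrays and 227.5 to 503.6 on control arrays. All 8 proliferating cell markers had a higher mean in sMaf CKO liver, with a median of 1.30 (0 passed, 3 higher at an unadjusted p under 0.05). Their sums overlapped (25.9 to 32.4 on sMaf CKO arrays, 9.003 to 27.4 on control arrays), with control liver 2 close to the sMaf CKO livers. All 8 stellate markers also had a higher mean, with a median of 0.43 (0 passed, 3 higher at an unadjusted p under 0.05), and their sums overlapped by a narrow margin (43.7 to 53.2 on sMaf CKO arrays, 31.5 to 43.8 on control arrays). The sums of neutrophil markers (6.00 to 8.81 on sMaf CKO arrays, 3.73 to 6.05 on control arrays), lymphocyte markers (0.864 to 3.102 on sMaf CKO arrays, 0.820 to 1.90 on control arrays) and endothelial markers (49.3 to 62.6 on sMaf CKO arrays, 53.6 to 74.1 on control arrays) overlapped too. No listed marker with a probe was below background on every array. The part of any of these cell types in the levels of the switch enzymes was not tested.

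**Figure D5:**
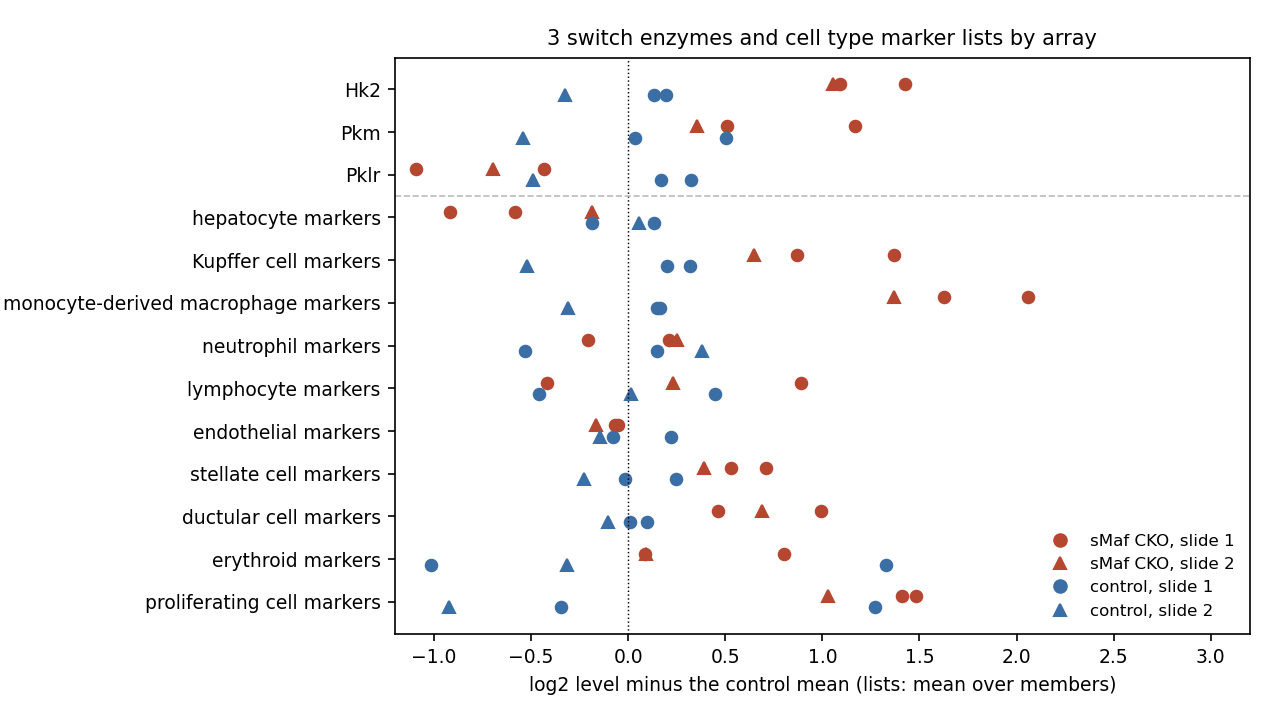
Log2 level minus the control mean for Hk2, Pkm and Pklr and, as a mean over members, for each cell type marker list on each array; sMaf CKO in red, control in blue, circles slide 1 and triangles slide 2. Monocyte-derived macrophage markers lie between 1.37 and 2.06 in sMaf CKO livers, against -0.31 to 0.16 in control livers, and hepatocyte markers span -0.92 to -0.19 in sMaf CKO livers, against -0.19 to 0.13 in control livers.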

How the data were processed

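Total RNA from 6 livers, labelled with Cy3 per the labels, was measured on one-colour Agilent arrays. Per the file headers, the deposited processed signal is an intensity from Agilent Feature Extraction 10.7.3.1, background-subtracted and detrended within each array. The authors' deposited value table is on a log2 scale and matched these signals minus each array's 75th percentile, centred on the median of the 6 arrays for each probe (99% of differences within 0.0107 on every array).

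Here, log2 processed signals minus each array's 75th percentile were tested with limma 3.58.1 in R 4.3.3. Control spots were left out, and 27859 of 41174 probes were kept as well above background on at least 3 arrays. The brightest probe stood for each gene, and Benjamini-Hochberg adjustment ran over 21059 genes and transcripts. Names came from accessions through the RefSeq table of GRCm38.p6, which gave a symbol to 26690 of the 41174 probes. Of the 21059 genes and transcripts tested, 14213 had a symbol. The files' headers give mm9, so no probe coordinates are given. On simulated data, where 20812 genes had no change, the fit called 4 of 67 genes with a log2 change of 1, 38 of 67 with 2 and 60 of 66 with 4. In that setting most changes of 1 were missed. The real arrays need not have the same share of changed genes, so these rates may not carry over to the members. The number of arrays limits the precision.

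The members and lists were chosen with earlier results of these data known. The text names all members, the small Maf genes, the 3 genes of smallest p in each pathway list, cell markers that passed and Ly6c2. Alternatives covered background, scaling, filters, probes, blocks and left-out arrays. With group means removed, same-numbered arrays of the genotypes had correlations of 0.063, 0.166 and 0.424, and differently numbered ones -0.372 to 0.292. These do not settle whether the numbers pair the samples, and they were not taken as pairs. Of the 3 isozyme pairs compared, 1 is not reported here.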

Additional observations from a re-analysis of the deposited data

How the results depend on the processing

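The number of switch enzymes called was 0 in the reported fit and 1 (Hk2) when probes had to be well above background on all 6 arrays, with slide as a block and with array weights; with 1 array left out it was 0 each time. The genes called among all tested, 114 as reported, were 74 with normexp (on median spot signals), 22 with quantile normalization, 252 with median scaling, 12 with scaling on 8 E1A spike-in probes, 1 without the filter, 267 with the 6-array filter, 340 with slide as a block, 196 within slide 1, 308 with trend and robust settings, 1141 with array weights and 3 at an adjusted p under 0.01. With 1 array left out they were 3 to 294 (3 without sMaf CKO replicate 1, 11 without sMaf CKO replicate 2, 294 without sMaf CKO replicate 3, 6 without control replicate 1, 175 without control replicate 2 and 22 without control replicate 3). The pathway and regulator genes called, 0 of 84 as reported, were 1 with median scaling, within slide 1 and with trend and robust settings, 2 with the 6-array filter and with slide as a block, 6 with array weights and 0 to 2 with 1 array left out. Of all calls, 71.05% were higher in sMaf CKO as reported, 81.82% under quantile normalization, 56.12% within slide 1, 53.46% with array weights and 48.64% without sMaf CKO replicate 3. Spike-in scaling moved the median of all genes by 0.30, to 0.25.

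The replicate numbers were not taken as pairs in the reported fit. A fit with the replicate block called 0 members, 291 genes in all and 2 pathway or regulator genes. For Pkm minus Pklr the difference stayed at 1.42 with the replicate block, an alternative chosen after seeing the data, and the exact p of 0.25 is the smallest that pairing allows; Pfkfb3 minus Pfkfb1 had p = 1 with either block. Pklr minus Pck1 could not be computed.

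The sign of these members and pairs turned, and the cause was not tested. Fbp1 was 0.064 with quantile normalization. Pfkfb1 was 0.16 without sMaf CKO replicate 1 and 0.11 within slide 2. Pfkfb3 minus Pfkfb1 was -0.047 with the mean of a gene's probes, -1.04 within slide 2, -0.37 without sMaf CKO replicate 1, -0.032 without sMaf CKO replicate 2 and -0.38 without control replicate 2. With 1 array left out, Pfkfb1 ranged from -0.76 to 0.16 and Pfkfb3 minus Pfkfb1 from -0.38 to 0.43. Among list medians, glycolysis turned to 0.11 with quantile normalization, 0.20 with spike-in scaling, 0.098 within slide 2, 0.066 with array weights, 0.13 without sMaf CKO replicate 1 and 0.016 without control replicate 1. Gluconeogenesis turned to -0.097 with the 6-array filter, and with spike-in scaling pyruvate entry turned to 0.044 and the regulators to 0.0084. The fructose 2,6-bisphosphate median, close to 0, was positive in several settings, up to 0.30 with spike-in scaling.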
